A study of Mus musculus with 9 samples.

Results

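Vcam1+ Havcr1- tubule nuclei are nuclei of injured mouse kidney that carry transcripts of Vcam1, a cell adhesion molecule, and none of Havcr1, the KIM-1 receptor of acutely injured proximal tubule. They were chosen on raw counts of unique molecular identifiers (UMIs, each 1 captured transcript) of 9 genes: Vcam1 at 2 or more, Havcr1 at 0, Slc34a1 under 3, Slc12a1 plus Umod under 3, and Flt1, Emcn, Ptprc and Lama2 all at 0. The rule found 761 nuclei among 14622 nuclei of 5 mice with ischemia-reperfusion injury, in a series of 27738 nuclei from 9 mice. They are set here against other nuclei of the same libraries and, among themselves, at day 28 against day 7.

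The study sorted GFP+ nuclei and sequenced them as Chromium 3' libraries, 1 per mouse. The 5 injured mice were Krt20T2A-CE; INTACTnuGFP/+ males given tamoxifen at 0.05 mg/g, so that GFP marked the nuclei of cells that had used Krt20, an injury gene of proximal tubule; when tamoxifen was given is not in the labels. Both renal pedicles were clamped for 18 min, and kidneys were taken at day 7 (2 mice) or day 28 (3 mice). The 4 control mice (3 sham, 1 non-surgery) were Six2TGC; Rosa26rtTA ; pTRE-H2BeGFP males on doxycycline food at 625 mg/kg, in which GFP marks the whole nephron, so the controls differ from the injured mice in strain, drug and label as well as in injury. All mice were 11 to 19 weeks old. Serum creatinine at 48 hours was 0.255 and 0.133 mg/dL in the day 7 mice and 0.488, 0.208 and 0.228 mg/dL in the day 28 mice.

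After ischemia, surviving proximal tubule cells lose their transport genes and switch on injury genes such as Havcr1, and most then return to a mature state. Some do not return; cells of this kind keep Vcam1 and secrete chemokines such as Ccl2, which draws monocytes, and they are known as failed-repair or maladaptive proximal tubule cells. Vcam1, Ccl2 and Icam1 are textbook targets of NF-kB, a transcription factor that its inhibitor IkB-alpha, encoded by Nfkbia, holds in the cytoplasm until a signal such as TNF releases it.

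The genes of the rule are given as description only. Vcam1 in the summed nuclei stood at 1099 and 1536 UMIs per 1000000 UMIs of those nuclei (CPM) in day 7 mice 1 and 2, and at 3990, 1484 and 1431 CPM in day 28 mice 1, 2 and 3. The nuclei of day 28 mouse 1 thus held the highest Vcam1 level, and the other 4 libraries lay close together. Those nuclei were also the shallowest, with a median of 1287 UMIs. In a shallow nucleus the 2 UMIs that the rule asks for are a larger share, so the rule itself raises this level. In the other nuclei Vcam1 was highest in day 28 mouse 3, at 414 CPM, against 392 CPM in day 28 mouse 1. The part of depth was not tested. Of the 761 nuclei, 258 had exactly 2 Vcam1 UMIs, 131 had 3 and 372 had 4 or more. Just outside the rule, 663 nuclei had 1 Vcam1 UMI with all other limits met, and 282 had 1 Havcr1 UMI. Slc34a1, the phosphate transporter of mature proximal tubule, was at 44.3 to 159 CPM in these nuclei and at 441 to 1094 CPM in the other nuclei of the same libraries.

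Depth varied between libraries. The nuclei gave 146541 and 76178 UMIs in the day 7 mice and 182474, 993142 and 1017419 UMIs in the day 28 mice. Their median was 3154 and 1928 UMIs per nucleus at day 7 and 1287, 3071 and 4412 at day 28, so the days overlap in depth. The barcodes of day 28 mouse 1 began as those of the v2 kit do, and those of the other 4 injured libraries as those of the v3 kit do. No barcode of the 761 nuclei occurred in another library. Malat1, an abundant nuclear RNA, took 11.1% and 8.05% of the UMIs of these nuclei at day 7 and 20.1%, 18.8% and 18.4% at day 28; in the other nuclei it took 10.3% and 6.73% at day 7 and 17.0%, 17.5% and 15.5% at day 28. Its share separated the days without overlap, and its part in any difference between the days was not tested.

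Vcam1+ Havcr1- nuclei made up a larger share of the traced nuclei in each day 28 mouse than in either day 7 mouse. They were 47 of 3847 nuclei (1.22%; 95% Wilson interval 0.920 to 1.62%) in day 7 mouse 1 and 36 of 3587 (1.00%; 0.726 to 1.39%) in day 7 mouse 2. In the day 28 mice they were 137 of 1863 (7.35%; 6.25 to 8.63%), 314 of 3928 (7.99%; 7.19 to 8.88%) and 227 of 1397 (16.2%; 14.4 to 18.3%). The lowest day 28 share was thus well above both day 7 shares, and day 28 mouse 3 stood above the other two. Intervals cover counting error only.

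The mean share was 10.5% ± 4.96 (SD, n = 3) at day 28 and 1.11% ± 0.154 (SD, n = 2) at day 7, a difference of 9.42 percentage points (exact two-sided permutation p = 0.1, the smallest that 3 against 2 mice allow). With each nucleus thinned to 1000 UMIs, so that depth was equal, the means were 8.05% and 1.30% and the groups still did not overlap. That left out 653, 599, 643, 159 and 30 shallower nuclei of day 7 mice 1 and 2 and day 28 mice 1, 2 and 3. Fewer nuclei of a kind and a lower capture of that kind by the GFP sort cannot be told apart here.

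**Figure D1:**
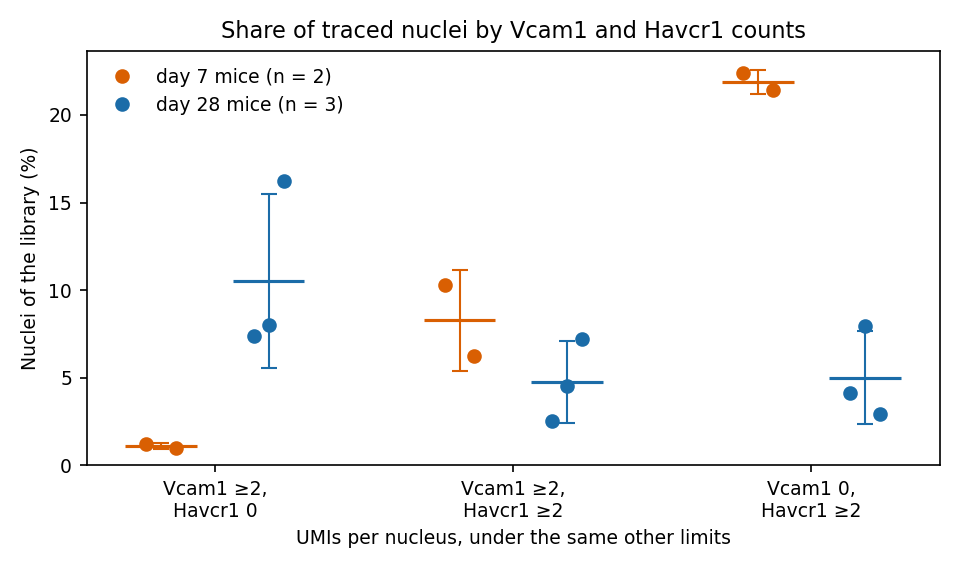
Share of each library's nuclei (vertical axis, percent) with Vcam1 only, both genes, or Havcr1 only, under the same limits on the other 7 genes of the rule. Points are mice, lines are means and bars are SDs; the day 28 mice lie at 7.35% to 16.2% for Vcam1 only, above both day 7 mice, and at 2.93% to 7.97% for Havcr1 only, below both.

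The Havcr1+ Vcam1- nuclei, with Havcr1 at 2 or more and Vcam1 at 0 under the same other limits, went the other way. They were 22.4% and 21.4% of nuclei at day 7 and 4.13%, 7.97% and 2.93% at day 28 (exact two-sided permutation p = 0.1). Nuclei with both genes at 2 or more were 10.3% and 6.22% at day 7 and 2.52%, 4.51% and 7.23% at day 28, and these groups overlapped (exact two-sided permutation p = 0.3). Of the nuclei with 2 or more Vcam1 UMIs inside the limits, 9.73% and 11.96% had no Havcr1 UMI at day 7, against 59.8%, 52.1% and 61.0% at day 28. The share of Vcam1-positive tubule nuclei without Havcr1 therefore did not overlap between the days.

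Free RNA can place a UMI in a nucleus that does not make it, so Vcam1 was also counted in nuclei that should lack it. Among nuclei without a Havcr1 UMI and thinned to 1000 UMIs, 2 or more Vcam1 UMIs were found in 3.37% and 2.65% of those inside the limits at day 7 and in 16.6%, 6.98% and 16.4% at day 28. Of nuclei with 10 or more Slc34a1 UMIs, the thinned share was 0% in 4 libraries, where a count of 0 allows up to 2.16% to 6.0%, and 2.23% (4 of 179) in day 28 mouse 3. Of nuclei with 10 or more UMIs of Slc12a1 plus Umod, the transporter and the secreted protein of thick ascending limb, it was 0% in all 5 libraries, which allows up to 2.00% to 8.82%. At equal depth Vcam1 inside the limits was above these references in every library, but in the day 7 mice by less than some of these small references can exclude. Distal convoluted nuclei, with 5 or more Slc12a3 UMIs, gave 0% at day 7 and 7.14% (2 of 28), 3.33% and 5.00% at day 28, from few nuclei. Unthinned, mature proximal nuclei gave 4.32% and 0% at day 7 and 0%, 0.794% and 8.38% at day 28, with median depths of 1709 to 4866 UMIs. In day 28 mouse 3, thick ascending limb nuclei gave 11.3% and distal convoluted nuclei 15.0% unthinned. With nuclei that carry Havcr1 included, 13.7% of mature proximal and 15.7% of thick ascending limb nuclei had 2 or more Vcam1 UMIs at day 7, and 8.91% and 6.61% at day 28, so Vcam1 counts were not limited to nuclei inside the limits.

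Most of the nuclei carried proximal tubule markers and nearly all carried injured proximal tubule markers, as did many other nuclei sorted by the Krt20 label. At least 2 of 12 proximal tubule markers were found in 86.1% of the 761 nuclei, near the 80.3% of all other nuclei and 89.0% of Havcr1+ Vcam1- nuclei. At least 2 of 10 injured proximal tubule markers outside the rule were found in 99.3%, against 86.7% and 99.1%. Kcnip4, a partner of voltage-gated potassium channels, had a UMI in 84.0% of them, Dock10, an activator of small GTPases, in 84.6%, and Pax8, a renal epithelial transcription factor, in 80.7%. The endocytic receptor Lrp2 was found in 44.7% of them, against 98.6% of nuclei with 10 or more Slc34a1 UMIs, at median depths of 3076 and 4618.5 UMIs. Krt20, whose locus drives the label, had a UMI in 8.15%.

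Defining markers of other cells were rare or had no UMI, although at this depth a nucleus of such a cell can lack a UMI of its marker. Pdgfrb of stroma, and Upk1b and Krt5 of urothelium had a UMI in 0 of 761 nuclei, which allows up to 0.394% of nuclei with a UMI. Nphs1 of podocytes was found in 2 nuclei, Aqp2 of principal cells in 4, Atp6v1g3 of intercalated cells in 5, Pecam1 of endothelium in 9 and Slc12a3 in 15. At least 2 endothelial markers outside the rule were found in 1 nucleus, 2 stromal markers in 2 nuclei, 2 leukocyte markers in 11 and 2 thick ascending limb markers in 12. Broader lists gave high values here, in Havcr1+ Vcam1- nuclei and in all other nuclei: at least 2 podocyte-list genes in 54.3%, 56.2% and 44.4%, at least 2 parietal epithelium genes in 77.1%, 81.8% and 65.9%, and at least 2 distal convoluted tubule genes in 31.3%, 31.3% and 28.6%. The summed podocyte list was higher than in Havcr1+ Vcam1- nuclei in all 5 libraries, at 2534 to 3658 CPM against 1884 to 2537 CPM, and its part in the results was not tested. The rule itself limits the mature genes.

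The comparison with the Havcr1+ Vcam1- nuclei of the same library asks what separates these 2 kinds of injured nuclei. Genes of the NF-kB pathway and chemokines were higher in the Vcam1+ Havcr1- nuclei. So were the interferon regulatory factor Irf1, the complement gene C3 and, on few counts, the dendritic cell surface gene Cd83. Genes of the EGF receptor family, S3-segment genes and the YAP targets Ankrd1 and Ctgf were lower. The 2 kinds are set apart by their Vcam1 and Havcr1 counts. The rule thus favours rises of genes that go with Vcam1 in a nucleus, as other NF-kB targets may. It likewise favours falls of genes that go with Havcr1. The differences are therefore given as description of the 2 kinds. Of 7223 genes tested with the library as a block, 151 were higher (2.09%) and 150 lower (2.08%), or 4.17% in all. The median over all of them was -0.0032 on the log2 scale, and 12.4% of all genes went the same way in all 5 libraries. With the library as a block, the p-values measure how the difference between the 2 kinds of nuclei varies between these 5 libraries.

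Of the 18 genes tested from a list of 25 NF-kB and chemokine genes, 9 were higher, none lower and 9 did not pass, with a median log2 difference of 0.65. Ccl2 is the chemokine by which monocytes are drawn through CCR2. In the Vcam1+ Havcr1- nuclei Ccl2 was at 54.6 and 13.1 CPM at day 7 and at 734, 105 and 106 CPM at day 28. In the Havcr1+ Vcam1- nuclei of the same libraries it was at 14.6 and 10.0 CPM and at 267, 56.4 and 10.3 CPM. Ccl2 was higher in all 5 libraries, with a log2 difference of 1.37 (SE 0.21), although it is a rare transcript: 1 UMI stands behind the value of day 7 mouse 2. Day 28 mouse 1 held the highest Ccl2 in both kinds of nuclei. By nuclei, Ccl2 had a UMI in 19.2% of Vcam1+ Havcr1- nuclei, in 4.85% of Havcr1+ Vcam1- nuclei and in 4.45% of nuclei with 10 or more Slc34a1 UMIs.

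Nfkbia, the inhibitor that NF-kB induces to end its own signal, was higher too. It was at 81.9 and 78.8 CPM at day 7 and 466, 149 and 162 CPM at day 28, against 48.0 and 35.7 and then 125, 55.5 and 71.9 CPM in the Havcr1+ Vcam1- nuclei. The log2 difference was 1.33 (SE 0.18), with every library higher. Icam1, an adhesion molecule that binds leukocyte integrins as Vcam1 does, was at 198 and 354 CPM at day 7 and 274, 114 and 173 CPM at day 28, against 70.5 and 106 and then 98.1, 49.0 and 108 CPM. All 5 libraries were higher, by 1.32 (SE 0.17) on the log2 scale.

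Cxcl10, the interferon-induced chemokine that attracts T cells, had the largest difference of the list. It was at 40.9 and 52.5 CPM at day 7 and 110, 66.5 and 30.5 CPM at day 28, against 5.90 and 5.53 and then 0, 11.1 and 30.8 CPM. It was higher in 4 of 5 libraries and level in day 28 mouse 3, with a log2 difference of 2.45 (SE 0.38). Cxcl10 met the low-count filter only through its levels in the Vcam1+ Havcr1- nuclei. The filter thus favoured this rise, which is description only. The neutrophil chemokine Cxcl2 was higher by 1.33 (SE 0.24) and Tnfaip2, a TNF-induced gene, by 1.42 (SE 0.32). The chemokine Cxcl16 was higher by 1.02 (SE 0.26). Among signaling members, Relb, a subunit of the alternative NF-kB pathway, was higher by 0.91 (SE 0.15) and Birc3, an inhibitor of apoptosis that acts at the TNF receptor, by 0.57 (SE 0.12). Annotated genes overlap Ccl2, Cxcl10, Cxcl16, Icam1 and Tnfaip2 on the opposite strand, and whether the counting used strand is not stated.

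**Figure D2:**
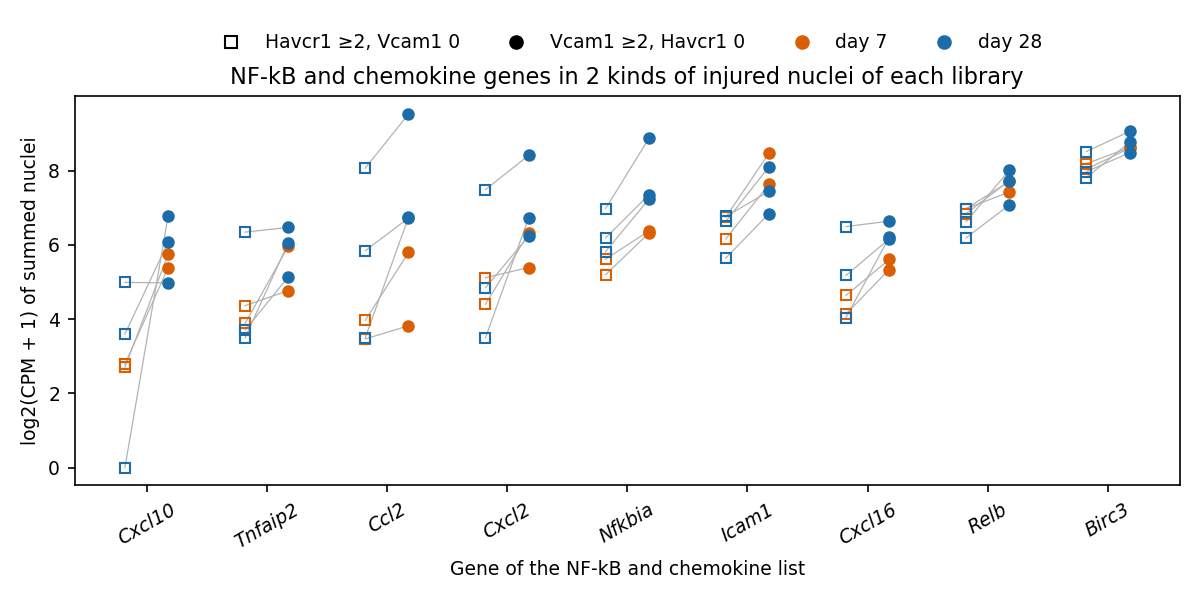
Levels of the 9 NF-kB and chemokine genes that passed the test (vertical axis, log2 of CPM + 1 of the summed nuclei) in Havcr1+ Vcam1- nuclei (squares) and Vcam1+ Havcr1- nuclei (circles), joined within each library and coloured by day. Lines rise in all 5 libraries for every gene except Cxcl10, which is level in day 28 mouse 3.

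The promoters of 3 of the genes that rose are shown because letters of the NF-kB consensus lie in them and no annotated exon does. Each is the 250 bases before the RefSeq start on the gene's own strand, build GRCm38.p6, in lower case with matches to the consensus on either strand in capitals. They are Cxcl10 at chr5:92348890-92349139 (minus strand), Nfkbia at chr12:55492648-55492897 (minus strand) and Irf1 at chr11:53769764-53770013 (plus strand).
Cxcl10: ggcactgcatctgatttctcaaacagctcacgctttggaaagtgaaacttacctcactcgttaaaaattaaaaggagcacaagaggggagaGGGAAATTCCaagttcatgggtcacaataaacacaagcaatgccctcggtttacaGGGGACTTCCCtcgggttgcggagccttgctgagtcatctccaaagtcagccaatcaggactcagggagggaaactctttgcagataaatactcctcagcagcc
Nfkbia: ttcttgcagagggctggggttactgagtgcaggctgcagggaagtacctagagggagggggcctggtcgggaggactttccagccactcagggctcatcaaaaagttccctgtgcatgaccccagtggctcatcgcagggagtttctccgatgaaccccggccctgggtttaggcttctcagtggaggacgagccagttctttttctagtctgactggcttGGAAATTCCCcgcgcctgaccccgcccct
Irf1: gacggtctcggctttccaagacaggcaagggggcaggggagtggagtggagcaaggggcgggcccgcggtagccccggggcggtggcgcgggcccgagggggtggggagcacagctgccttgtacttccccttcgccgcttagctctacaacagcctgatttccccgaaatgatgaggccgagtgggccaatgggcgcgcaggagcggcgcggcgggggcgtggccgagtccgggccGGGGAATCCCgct
Cxcl10 had 3 matches, beginning 159, 104 and 103 bases before the start, of which the last 2 overlap. Nfkbia had 1, at 29 bases, and Irf1 had 1, at 13 bases, while the window of another RefSeq start of Irf1 (chr11:53770223-53770472) had none. Of the 9 higher genes of the list, 6 were in the promoter table, and 4 of these (Cxcl10, Cxcl2, Nfkbia and Tnfaip2) held a match while Birc3 and Icam1 held none. Of all 32851 promoters of that length, 2382 (7.25%) held one. As the list holds NF-kB genes by choice, a share above that of all promoters does not bear on these nuclei. The windows of Cxcl2 and Tnfaip2 also overlap annotated exons. The AP-1 letters TGANTCA were in the Cxcl10 window and in 6.75% of all promoters. A match in letters is not evidence of binding, and these nuclei were not assayed for it.

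Of 12 interferon and antigen presentation genes tested, 4 were higher and none lower, with a median of 0.61. Irf1, a transcription factor of interferon and TNF responses, was at 81.9 and 144 CPM at day 7 and 76.7, 59.4 and 38.3 CPM at day 28. In Havcr1+ Vcam1- nuclei it was at 18.8 and 23.6 and then 44.6, 15.7 and 15.4 CPM, lower in each library. The log2 difference was 1.96 (SE 0.29). The complement component C3 was higher by 1.29 (SE 0.18), the class II invariant chain Cd74 by 1.12 (SE 0.32) and B2m, the light chain of class I molecules, by 0.72 (SE 0.21). An annotated gene overlaps Irf1, and another B2m, on the opposite strand.

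Leukocyte markers moved with these genes. The 10 leukocyte-list genes outside the rule summed to 55.4 to 164 CPM in the Vcam1+ Havcr1- nuclei, against 32.0 to 71.3 CPM in the Havcr1+ Vcam1- nuclei, higher in all 5 libraries. Without Cd74, which is on both lists, they summed to 21.1 to 52.5 CPM against 8.91 to 33.7 CPM, also higher in all 5. At least 2 of the 10 were found in 1.45% and 0.583% of nuclei. Of the 761 and 2060 nuclei, Cd74 had a UMI in 86 and 88, and Csf1r in 25 and 58. Ikzf1 was found in 22 and 34 nuclei and Mrc1 in 11 and 16. Dock2 was found in 3 and 14, C1qb in 2 and 8, Adgre1 in 1 and 8 and C1qa in 0 and 4. Cd247 was found in 2 and 2, and Runx3 in 1 and 0. With every nucleus that held a UMI of the 10 genes left out of both kinds (621 of 761 and 1842 of 2060 kept), 9 of 18 NF-kB and chemokine genes were higher and none lower, with a median of 0.60. In that fit, chosen after seeing the data, 2 of 9 interferon and antigen presentation genes were higher, Irf1 and C3, and Cd83 had too few counts to be tested.

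Among the rises named by the rule, Cd83, known from activated dendritic cells, came first, on few counts. It had 4 and 5 UMIs at day 7 and 15, 17 and 35 at day 28 in the Vcam1+ Havcr1- nuclei, against 5 and 4 and then 1, 1 and 1, so its fold is imprecise. It was at 27.3 and 65.6 CPM at day 7 and 82.2, 17.1 and 34.4 CPM at day 28, against 1.40 and 2.01 and then 8.91, 0.925 and 5.13 CPM. The log2 difference was 4.15 (SE 0.55). Cd83 met the low-count filter only through its levels in the Vcam1+ Havcr1- nuclei. The filter thus favoured the lack of overlap with the Havcr1+ Vcam1- nuclei, which is description only. Fam167a followed with 2.62 (SE 0.47), then the semaphorin receptor Plxnd1 with 1.96 (SE 0.46) and Slc16a14, a member of the monocarboxylate transporter family, with 1.93 (SE 0.33). Agmo, an enzyme that cleaves ether lipids, was higher by 1.78 (SE 0.35), the netrin receptor Unc5c by 1.64 (SE 0.23) and the kinase Mark1 by 1.59 (SE 0.23). Each of these was higher in all 5 libraries.

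Dock10 separated the 2 kinds of injured nuclei and Kcnip4 did not pass the test. Dock10 was at 2088 and 2468 CPM at day 7 and 2296, 1871 and 2255 CPM at day 28, against 1145 and 1423 and then 1373, 1145 and 1062 CPM. Dock10 was higher in every library, with a log2 difference of 0.84 (SE 0.09). Kcnip4 was at 3207 and 2599 CPM at day 7 and 5036, 4781 and 4290 CPM at day 28, against 3461 and 2865 and then 4440, 4170 and 5318 CPM. It was higher in 2 of 5 libraries, with a log2 difference of -0.03 (SE 0.09; edgeR adjusted p = 0.96).

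**Figure D3:**
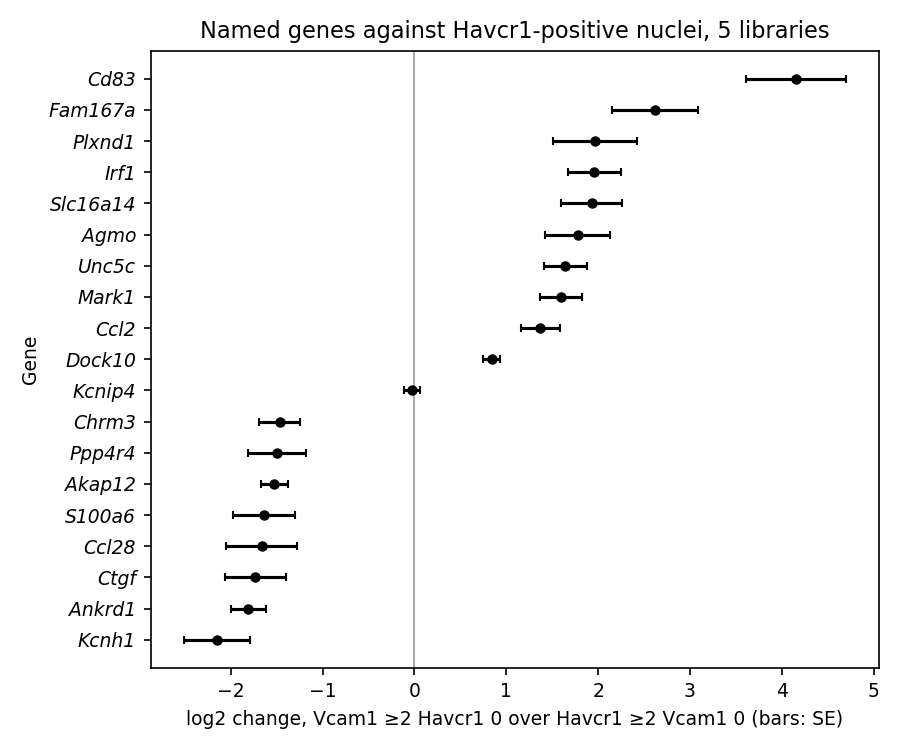
Log2 difference (horizontal axis) of the named genes in Vcam1+ Havcr1- nuclei over Havcr1+ Vcam1- nuclei, from the fit over 5 libraries. Points are estimates and bars are standard errors; Cd83 is at 4.15, Dock10 at 0.84, Kcnip4 at -0.03 and Kcnh1 at -2.15.

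Among the genes that were lower were Ankrd1, Ctgf and Akap12. Ankrd1, a target of YAP and of mechanical strain, was at 6.82 and 13.1 CPM at day 7 and 225, 67.5 and 38.3 CPM at day 28, against 180 and 90.4 and then 785, 231 and 71.9 CPM. It was lower in every library, by -1.81 (SE 0.19) on the log2 scale. Ctgf, another YAP target, was at 0 CPM in both day 7 mice and at 27.4, 25.2 and 9.83 CPM at day 28, against 26.4 and 16.1 and then 134, 80.5 and 10.3 CPM. Its log2 difference was -1.73 (SE 0.33), and the libraries of day 28 mouse 3 were nearly level. Akap12, a scaffold of protein kinase A, was at 218 and 171 CPM at day 7 and 247, 321 and 87.5 CPM at day 28, against 465 and 400 and then 1302, 1013 and 133 CPM. Its log2 difference was -1.53 (SE 0.15), lower in every library.

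The potassium channel Kcnh1, which overlaps Hhat on the opposite strand, was lower by -2.15 (SE 0.36) and the muscarinic receptor Chrm3 by -1.47 (SE 0.23). The chemokine Ccl28 was lower by -1.66 (SE 0.39) and Ppp4r4, a regulatory subunit of a protein phosphatase, by -1.499 (SE 0.32). The calcium-binding S100a6 was lower by -1.64 (SE 0.33). S100a6 was 1 of 3 acute injury genes that were lower among 15 tested, with Plaur, the urokinase receptor, at -1.36 (SE 0.32) and Anxa3 at -0.82 (SE 0.14). None of the 15 was higher, and their median was -0.21.

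The EGF receptor family was lower in 5 of 7 genes tested and higher in none, with a median of -0.46. Hbegf, a ligand of the receptor, was at 20.5 and 13.1 CPM at day 7 and 32.9, 25.2 and 24.6 CPM at day 28, against 41.6 and 39.2 and then 116, 51.8 and 77.0 CPM. Hbegf was lower in every library, by -1.35 (SE 0.27) on the log2 scale. Its day 7 levels in the Vcam1+ Havcr1- nuclei rest on few UMIs. The ligand Nrg1 was at 1590 and 1483 CPM at day 7 and 904, 767 and 612 CPM at day 28, against 2086 and 1876 and then 1810, 1430 and 1345 CPM. It was lower in every library, by -0.75 (SE 0.10). The receptors Egfr and Erbb4 were lower by -0.46 (SE 0.10) and -0.43 (SE 0.10), and the feedback inhibitor Errfi1 by -0.70 (SE 0.13).

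The list of failed-repair genes did not move one way against Havcr1+ Vcam1- nuclei. Of 25 tested, 5 were higher (Ccl2, Cd44, Dock10, Pdgfb and Prom1), 9 lower and 11 did not pass, and the median was -0.09. Cd44, the hyaluronan receptor, was higher by 0.85 (SE 0.11) and the growth factor Pdgfb by 0.63 (SE 0.16). Runx1, a transcription factor of injured epithelium, was at 150 and 223 CPM at day 7 and 269, 242 and 170 CPM at day 28, against 499 and 365 and then 865, 315 and 565 CPM. Runx1 was lower in every library, with a difference of -1.17 (SE 0.15). Pax8 was lower by -0.58 (SE 0.09), the sorting receptor Sorcs1 by -0.40 (SE 0.10), Pdgfd by -0.40 (SE 0.09) and Dcdc2a, a microtubule-binding protein, by -0.37 (SE 0.10).

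Matrix genes were mixed: of 24 genes of TGF-beta, matrix and integrins, 5 were higher and 2 lower, with a median of 0.19. The basement membrane collagens Col4a1, Col18a1 and Col4a2 were higher by 0.71 (SE 0.14), 0.63 (SE 0.12) and 0.51 (SE 0.14), and the integrin Itgav by 0.59 (SE 0.10). Fibronectin, Fn1, was lower by -1.09 (SE 0.33) in 4 of 5 libraries.

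Proximal tubule genes were not simply higher or lower. Of 24 transport genes tested, 2 were higher and 8 lower, with a median of -0.46. Slc7a12, a transporter of the S3 segment, was at 47.8 and 0 CPM at day 7 and 110, 38.3 and 28.5 CPM at day 28, against 176 and 124 and then 428, 74.9 and 46.2 CPM. It was lower in every library, by -1.46 (SE 0.22). Of 7 S3 genes, 4 were lower (Slc7a12, Cyp7b1, Slc5a8 and Slco1a6) and none higher, with a median of -1.12. The S1 lactate transporter Slc5a12 was at 13.6 and 26.3 CPM at day 7 and 126, 126 and 89.4 CPM at day 28, against 24.2 and 22.1 and then 8.91, 47.2 and 41.1 CPM. Slc5a12 was higher in 4 of 5 libraries, by 1.18 (SE 0.26), and the bicarbonate transporter Slc4a4 by 0.31 (SE 0.09). The regulators Maf, Tfcp2l1 and Esrrg were higher by 0.80 (SE 0.17), 0.47 (SE 0.13) and 0.44 (SE 0.08), of 13 tested.

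The number of genes past the test in this comparison depended on the library block and the tool. Without the block 8 genes passed, 0 of the 18 NF-kB genes among them (median 0.87), and with DESeq2 133 passed, 8 of the 18 among them. Without day 28 mouse 2, which holds 313 Havcr1+ Vcam1- nuclei against 77 and 41 in the other day 28 mice, 3640 genes could be tested and 130 passed, 6 of 15 NF-kB genes among them.

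Against all other nuclei of their libraries, which include mature proximal tubule and other cell types, Vcam1+ Havcr1- nuclei had higher NF-kB, interferon and matrix genes and lower mature proximal tubule genes. Of 10523 genes tested, 427 were higher (4.06%) and 759 lower (7.21%), or 11.3% in all, and 17.0% of all genes went the same way in all 5 libraries. The median over all genes was -0.017. The rule limits Slc34a1, Slc12a1 and the other lineage genes, so it favours falls in mature tubule and other-cell genes, which are given as description. It also asks for Vcam1, so it favours rises of genes that go with Vcam1, as other NF-kB targets may. These rises are description too.

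The NF-kB and chemokine list had 15 of 22 genes higher and none lower, with a median of 0.84. Igf1, a growth factor that overlaps its antisense gene Igf1os, led the named rises. It was at 13.6 and 13.1 CPM at day 7 and 115, 37.3 and 64.9 CPM at day 28, against 6.55 and 6.60 and then 20.2, 10.4 and 19.3 CPM in other nuclei, a log2 difference of 1.92 (SE 0.22) with every library higher. Cd40, a TNF receptor family member of antigen-presenting cells, was at 34.1 and 26.3 CPM at day 7 and 27.5 to 38.3 CPM at day 28, against 6.29 to 18.1 CPM. Cd40 was higher in every library, by 1.44 (SE 0.25). Rasal1, a Ras inhibitor, was higher by 1.504 (SE 0.27), Ccl2 by 1.35 (SE 0.13), Tnfaip3, the A20 inhibitor of NF-kB, by 1.01 (SE 0.16), and Cxcl1 by 1.06 (SE 0.12). Nfkb1, encoding the p50 subunit, was higher by 0.53 (SE 0.10) and Il34, a macrophage growth factor, by 0.54 (SE 0.10), both in all 5 libraries.

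Of 18 interferon and antigen presentation genes, 10 were higher and none lower, with a median of 0.52. C3 was at 164 and 341 CPM at day 7 and 115, 178 and 150 CPM at day 28, against 61.8 and 87.4 and then 50.7, 88.9 and 67.2 CPM. C3 was higher in every library, by 1.24 (SE 0.12). Of 29 TGF-beta, matrix and integrin genes, 12 were higher and none lower, with a median of 0.29. Itgav was higher by 0.86 (SE 0.10) and Pdgfb by 0.91 (SE 0.11), both in all 5 libraries.

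The failed-repair list had 12 of 26 genes higher and 2 lower against other nuclei, with a median of 0.28. Dock10 stood at 868 to 1397 CPM in other nuclei and was higher in the Vcam1+ Havcr1- nuclei of every library, by 0.95 (SE 0.10). Kcnip4 was higher in all 5 libraries by 0.36 (SE 0.10), from 2544 to 3419 CPM in other nuclei. Cd44 was higher by 1.02 (SE 0.11), Kcnh8 by 0.61 (SE 0.11), Cp, the ceruloplasmin gene, by 0.44 (SE 0.10) and Cdh6, an early nephron cadherin, by 0.39 (SE 0.10). Of 17 acute injury genes, 5 were higher and 2 lower, among them Krt20 with 1.06 (SE 0.24) and Sox9, a transcription factor of regenerating tubule, with 0.77 (SE 0.15).

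Mature genes were lower: 25 of 32 transport genes (median -1.36), 16 of 22 gluconeogenesis, amino acid and creatine genes (median -0.75), 7 of 23 fatty acid oxidation genes (median -0.39) and 7 of 7 S3 genes (median -1.88), with none higher in these 4 lists. Slc22a30 was lower by -3.13 (SE 0.19), the gluconeogenic G6pc by -3.37 (SE 0.44), Pck1 by -1.68 (SE 0.18), Lrp2 by -1.09 (SE 0.11) and the master regulator Hnf4a by -0.64 (SE 0.13). The largest falls by the naming rule included Slit3, Casr, Pde3a, Ldb2, Ppp1r1a, Tfap2b and Egf, at -6.27 to -4.10. Their levels in Vcam1+ Havcr1- nuclei were 0 to 17.7 CPM, so these fits rest on few UMIs.

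**Figure D4:**
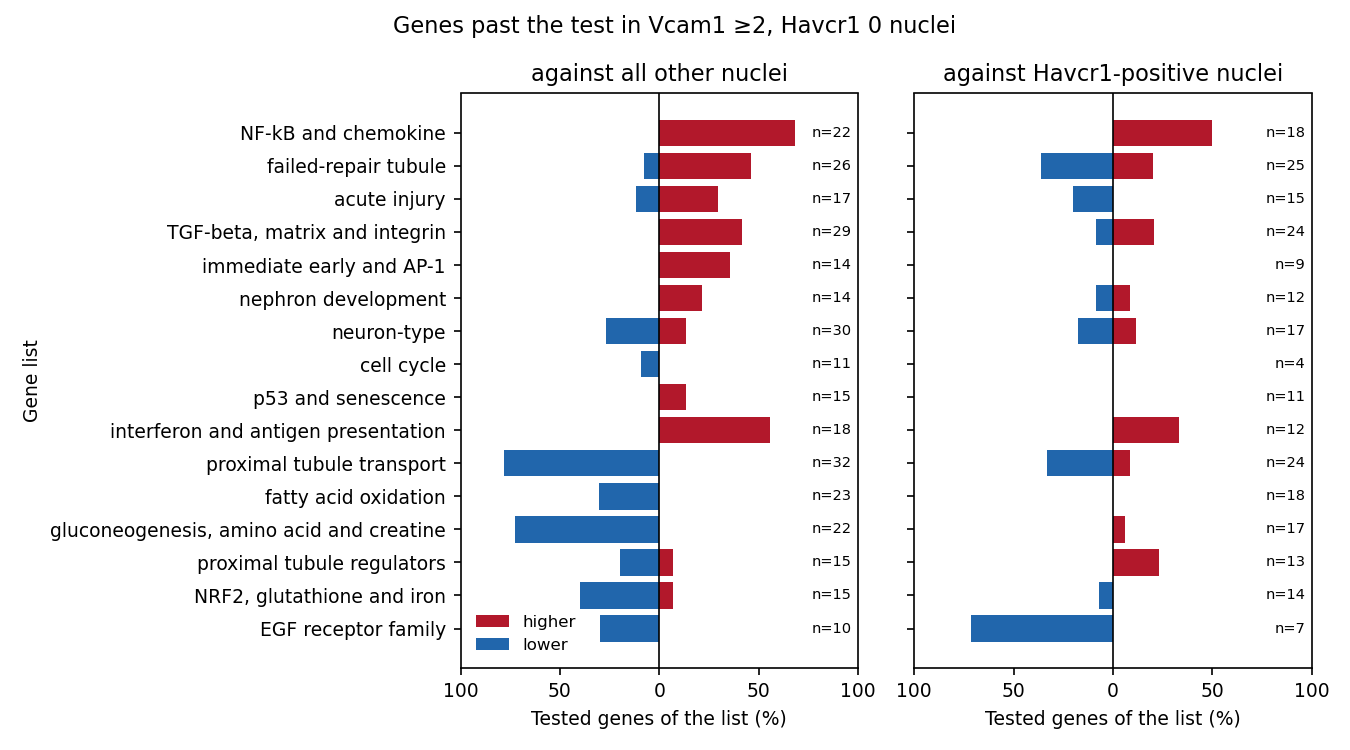
Share of tested genes of each list (horizontal axis, percent) that were higher (red, right) or lower (blue, left) in Vcam1+ Havcr1- nuclei, against all other nuclei (left panel) and Havcr1+ Vcam1- nuclei (right panel); n is the number of genes tested. NF-kB and chemokine genes are higher in both panels (15 of 22 and 9 of 18), while proximal tubule transport is lower in 25 of 32 and 8 of 24.

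A narrower reference gave the same direction for the NF-kB and matrix lists. It was the 3566 nuclei that meet the same limits but have neither Vcam1 nor Havcr1. Of 8888 genes tested against it, 475 were higher and 606 lower. Among NF-kB genes 17 of 20 were higher and none lower (median 1.22), and 15 of 26 matrix genes were higher (median 0.44). This reference has Vcam1 at 0, so it also favours rises of genes that go with Vcam1. Here 19 of 28 transport genes were lower and 1 higher, and 9 of 21 gluconeogenesis, amino acid and creatine genes were lower. Errfi1 and Slc5a2 turned in direction against this reference, to log2 differences of 0.29 and 0.06. Against all other nuclei they stood at -0.48 and -1.37.

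Between the days, few genes passed within the Vcam1+ Havcr1- nuclei. Tgfb2, a TGF-beta ligand, and Wdr17 were higher at day 28, and Pth1r, the parathyroid hormone receptor, and the cadherin Cdh13 were lower. Of 3827 genes tested, 7 were higher (0.183%) and 5 lower (0.131%), or 0.314% in all. The groups of 2 and 3 mice did not overlap for 40.0% of all genes, and the median over all genes was 0.02. The day 7 values come from 83 nuclei.

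Tgfb2 was at 20.5 and 13.1 CPM at day 7 and 98.6, 131 and 154 CPM at day 28, without overlap, a log2 difference of 3.08 (SE 0.47). Wdr17 was at 34.1 and 26.3 CPM at day 7 and 186, 163 and 255 CPM at day 28, likewise without overlap, a difference of 2.90 (SE 0.44). Lrrc4, which lies within Snd1 on the opposite strand, was at 0 CPM in both day 7 mice and at 126, 111 and 106 CPM at day 28, so its fitted fold has no fixed size. Tgfb2, Wdr17 and Lrrc4 met the low-count filter through their day 28 levels only. Their day 7 levels rest on few UMIs, from sums of 146541 and 76178 UMIs. The filter thus favoured their lack of overlap, which is description only. The other 4 genes that were higher are predicted genes.

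Pth1r, which overlaps Myl3 on the opposite strand, was at 355 and 538 CPM at day 7 and 65.8, 65.4 and 48.2 CPM at day 28, a log2 difference of -2.68 (SE 0.30). Cdh13 was at 409 and 512 CPM at day 7 and 27.4, 30.2 and 75.7 CPM at day 28, a difference of -3.01 (SE 0.40). Both genes were thus lower in every day 28 mouse than in either day 7 mouse. Cdh13 met the low-count filter through its day 7 levels only. The filter thus favoured its lack of overlap, which is description only. Peak1, a pseudokinase of the cytoskeleton, was at 901 and 1759 CPM at day 7 and 285, 289 and 361 CPM at day 28, a difference of -1.82 (SE 0.28). Csgalnact1, an enzyme of chondroitin sulfate synthesis, was lower by -2.08 (SE 0.31) and Ccbe1, a secreted factor of lymphatic growth, by -2.01 (SE 0.30).

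Among the markers of these nuclei, Ccl2, Kcnip4 and Dock10 did not pass between the days in edgeR, while Kcnip4 passed with DESeq2 (adjusted p = 0.018) and Ccl2 passed in edgeR without a filter on low counts (adjusted p = 1.7e-06) and with the replicate block. Ccl2 averaged 315 ± 363 CPM (SD, n = 3) at day 28 and 33.9 ± 29.3 CPM (SD, n = 2) at day 7, and its log2 difference of 3.05 had an SE of 1.29 (edgeR adjusted p = 0.39). Ccl2 was higher in every day 28 mouse than in either day 7 mouse, with day 28 mouse 1 far above the rest. Kcnip4 did not overlap between the days either, and its difference of 0.93 (SE 0.24) had an edgeR adjusted p of 0.17. Dock10 overlapped, with a difference of 0.15 (SE 0.23).

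**Figure D5:**
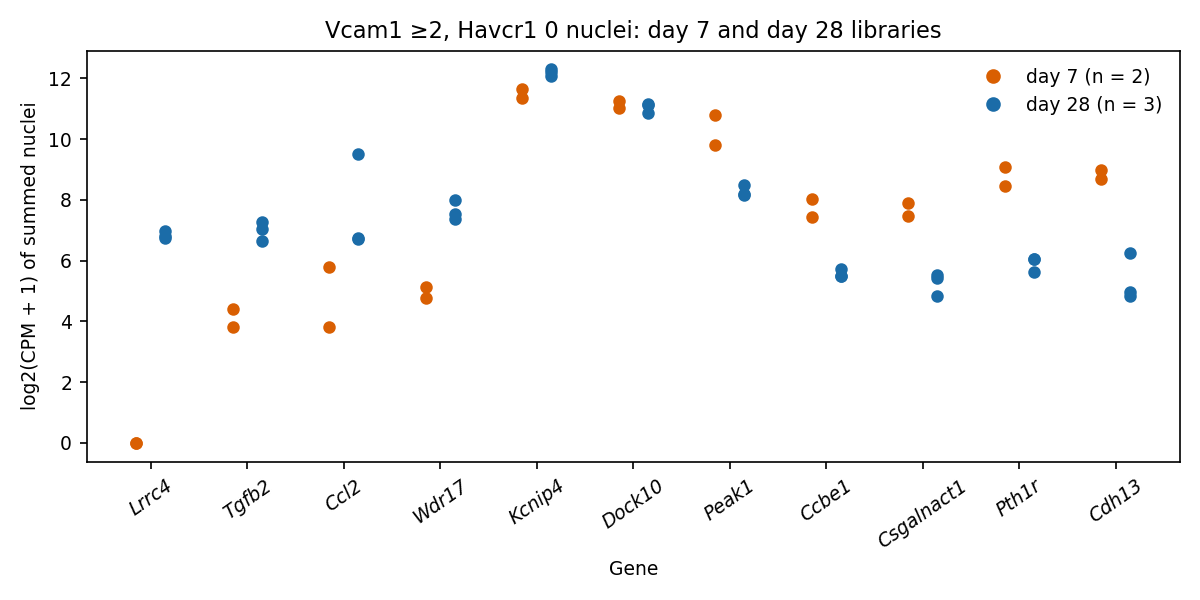
Levels (vertical axis, log2 of CPM + 1 of the summed Vcam1+ Havcr1- nuclei) of the genes named between the days and of Ccl2, Kcnip4 and Dock10, with 1 point per mouse. Tgfb2 and Wdr17 lie higher at day 28 and Pth1r, Cdh13, Peak1, Csgalnact1 and Ccbe1 lie lower, without overlap. The day 7 points of Tgfb2 and Wdr17 rest on few UMIs, and Cdh13 met the low-count filter through its day 7 levels only.

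Of the NF-kB and chemokine list, 0 of 18 genes passed between the days in edgeR or DESeq2 (median 0.42). In edgeR 5 of 24 were higher without a filter on low counts, 3 of 18 with the replicate block, 1 of 18 with 1 or more Vcam1 UMIs and 1 of 21 without day 28 mouse 1. On the fit without these changes, beyond Tgfb2 no gene of the other lists passed in edgeR. Leaving out either day 7 mouse left 0 genes past the test in edgeR, with 648 and 642 at an unadjusted p under 0.05; DESeq2 was run on all 5 mice only and called 57. The difference between the day effect in these nuclei and that in the other nuclei passed for 49 of 12267 genes in edgeR (0.399%) and for 0 in DESeq2; the ratios of the 2 kinds of nuclei per library did not overlap between the days for 30.4% of genes. DESeq2 had 419 genes at an unadjusted p under 0.05. Among the 3827 genes counted well enough in the Vcam1+ Havcr1- nuclei, 0 passed in edgeR, with 335 at an unadjusted p under 0.05.

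In the control mice, 13 of 13116 nuclei met the rule. By library they were 6 of 3589 (0.167%), 2 of 4564 (0.0438%), 4 of 2419 (0.165%) and 1 of 2544 (0.0393%), in the non-surgery mouse and sham mice 1, 2 and 3. Each share was below that of every injured library. Among control nuclei with 10 or more Slc34a1 UMIs, 0 of 3552 had 2 or more Vcam1 UMIs, at a median of 2257 UMIs, which allows a share of up to 0.0845%.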

How the data were processed

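The authors deposited raw UMI counts per gene and nucleus, 1 table for the 5 injured mice (14622 nuclei, 19342 genes) and 1 for the 4 controls (13116 nuclei, 17455 genes). The submitters' processing notes list mm10, Seurat, STAR and Cell Ranger, without versions; strand use in counting is not given in the sources used here. Per the labels, doublets were gated out at the sorter, and no doublet caller was run.

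Nuclei were chosen by the rule and their counts summed per library; CPM are UMIs of a gene per 1000000 UMIs of that sum. The sums were fitted with edgeR 4.0.16 (R 4.3.3): TMM, filterByExpr, quasi-likelihood F test, and Benjamini-Hochberg adjustment over all genes tested, with a threshold of 0.05. Comparisons between kinds of nuclei had the library as a block, the day comparison had none, and the 9 genes of the rule were left out. DESeq2 1.42.0, no filter on low counts, other Vcam1 thresholds, a minimum of 1000 UMIs, each mouse left out and a replicate block were alternatives. Nuclei with transcripts of other nephron cells or of leukocytes left out, and the interaction among well-counted genes, were added after seeing the data. Shares were compared with an exact permutation test.

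Genes were named by a rule: the 4 markers given with the nuclei, and the 8 largest rises and 8 largest falls past the threshold. These needed at least 20 mean CPM in the higher group and all libraries in 1 direction (between the days, no overlap). Predicted genes and the 9 genes of the rule were left out. Members of the gene lists past the test were named too. The plan was up to 4 of the largest changes per list, but some lists have more named, and not always their largest. A few genes that the rule names are not reported here. The members, markers and gene lists were chosen with earlier results of these data known. On simulated counts, 4-fold changes were recovered in 90% of 100 genes between the days, 86% against Havcr1+ Vcam1- nuclei, 98% against other nuclei and 37% for the interaction, and 2-fold changes in 31%, 72%, 78% and 9%. Unchanged genes that passed numbered 11 between the days, 9 against Havcr1+ Vcam1- nuclei, 9 against other nuclei and 2 for the interaction. Apart from depth and the set changes, the simulated libraries had the same gene means, which real libraries need not have. Of the 19342 gene symbols, 98.6% were found in GENCODE M21. Promoters are from a RefSeq table of GRCm38.p6.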

Additional observations from a re-analysis of the deposited data

Results flagged for a closer look

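A test of the difference between the day effect (day 28 against day 7) in Vcam1+ Havcr1- nuclei and that in the other nuclei passed for 49 of 12267 genes in edgeR, and 14 of them met the naming rule. None passed with DESeq2, with 419 at an unadjusted p under 0.05, and none in edgeR among the 3827 genes counted well in the Vcam1+ Havcr1- nuclei, with 335 at an unadjusted p under 0.05, so the 14 genes are values to look at again and not established differences. Differences are given as log2 day effect in Vcam1+ Havcr1- nuclei minus log2 day effect in the other nuclei. Those above 0 were Xirp2 (10.88), B4galt6 (3.98), Bmpr1b (3.85), Ankrd1 (3.47), Khdrbs3 (2.59), S100a10 (2.41), Kansl3 (2.36) and Slc4a7 (1.97). Xirp2 had 0 CPM in both day 7 mice and 192, 78.5 and 148 CPM at day 28, so its value has no fixed size. Those below 0 were Ccl5 (-3.58), Lhfp (-1.97), Slc16a9 (-1.92), Ptchd4 (-1.82), Tshz2 (-1.33) and Csgalnact1 (-1.16). Ccl5, a T cell chemokine, was at 34.1 and 131 CPM in the Vcam1+ Havcr1- nuclei at day 7 and at 0, 3.02 and 3.93 CPM at day 28, against 0 to 6.07 CPM in other nuclei. Ccl5 met the low-count filter only through these day 7 levels, which rest on few UMIs. The filter thus favoured its difference, which is description only. The median over all genes was 0.29, and the day 7 levels rest on 83 nuclei.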

How the results depend on the processing

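The share of nuclei at day 28 stayed above that at day 7 under every alternative, with a difference of 6.56 to 11.0 percentage points when a mouse was left out. Counts of genes past the test moved more. Between the days 12 genes passed (7 higher, 5 lower), against 57 with DESeq2 (42 higher, 15 lower), 203 without a filter on low counts, 78 with 1 or more Vcam1 UMIs and 0 to 96 with a mouse left out: 0 without either day 7 mouse, 96 without day 28 mouse 1 and 33 without day 28 mouse 3. With the replicate block 73 passed. The deviations of same-numbered mice from their day means had correlations of -0.022 and -0.049 over 2 pairs. With 2 mice at day 7 their deviations mirror each other, so these correlations cannot decide whether the numbers mark a pairing. Against Havcr1+ Vcam1- nuclei 301 passed, against 133 with DESeq2, 8 without the library block and 130 to 281 with a mouse left out, the lowest without day 28 mouse 2. Against other nuclei 1186 passed, against 639 with DESeq2, 166 without the library block and 634 to 1295 with a mouse left out, the lowest without day 28 mouse 3. For the difference between day effects 49 passed, against 0 with DESeq2, 32 with at least 1000 UMIs per nucleus, 15 without nuclei with transcripts of other nephron cells, 0 among genes counted well in the Vcam1+ Havcr1- nuclei, and 2 to 48 with a mouse left out: 2 without day 7 mouse 1, 32 without day 7 mouse 2 and 15 without day 28 mouse 3. Errfi1 and Slc5a2 turned to 0.29 and 0.059 against nuclei without Vcam1 or Havcr1 inside the limits. The causes were not tested. For named genes against Havcr1+ Vcam1- nuclei, 688 values kept direction and side of the threshold over the alternatives and 159 fell below it; against other nuclei 1475 kept both, 316 fell below and 2 turned; between the days 102 kept both, 26 fell below and 3 came past it. The 83 day 7 nuclei limit the day comparison.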

Other observations

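Of all 10523 genes tested against other nuclei, 4.06% were higher and 7.21% lower, and the list counts against other nuclei stand beside these shares. Cell cycle genes were at the edge of detection in Vcam1+ Havcr1- nuclei. Of 25 listed, 11 could be tested against other nuclei. Of these 1 was lower, near the share over all genes: Atad2, by -1.37 (SE 0.39). Of 15 p53 and senescence genes 2 were higher against other nuclei, Igfbp7 among them. Of 14 immediate early and AP-1 genes 5 were higher there: Klf6, Dusp1, Junb, Ier3 and Jun. Of 15 NRF2, glutathione and iron genes 1 was higher, Gsta2, and 6 were lower: Ggt1, Fth1, Gclc, Ftl1, Gpx3 and Gsr. Genes with neuron-type roles split: against other nuclei 4 of 30 were higher, Nkain2 by 0.42 (SE 0.11) among them, and 8 were lower, among them Tenm2 by -3.60 (SE 0.39) and Slit2 by -1.94 (SE 0.18). Wt1, the transcription factor of nephron progenitors and podocytes, was higher against Havcr1+ Vcam1- nuclei in all 5 libraries by 1.33 (SE 0.27), at 39.4 to 81.6 CPM against 17.1 to 29.6 CPM. Of 6 podocyte genes tested there, 4 were higher (Wt1, Clic5, Robo2 and Magi2) and Thsd7a was lower. Over all genes of that comparison, 2.09% were higher and 2.08% lower.

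The 13 control nuclei that met the rule held 13 UMIs of Cxcl10 (502 CPM of their summed UMIs), 0 of Ccl2 and 3 of Irf1 (116 CPM). All control nuclei together had Cxcl10 at 6.78 CPM, Ccl2 at 1.15 CPM and Irf1 at 7.03 CPM. These nuclei come from another strain and table, and they were not compared by a test.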
